A study of Mus musculus with 4 samples.

Results

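The complement genes described here are 8 genes taken by symbol from a gene table of 28692: the C1q chains C1qa, C1qb and C1qc, the components C3 and C4b, the receptors C3ar1 and C5ar1, and the positive regulator Cfp (properdin). All 8 symbols were found, each on 1 row. The values are counts of unique molecular identifiers (UMIs), each standing for 1 captured RNA molecule, in single myeloid cells of the mouse cortex and hippocampus. There was 1 group of 4 libraries, 1 per mouse: all mice were C57BL/6J males, 90 days old, injected with PBS (a buffered salt solution) in the tail vein, and all 4 brains were dissociated by cold Dounce homogenisation, which is mechanical and uses no enzyme. The labels place the injection 24 hours before sacrifice, and the methods of the study state another interval, so this time is uncertain. Live cells positive for CD45 and CD11b were sorted according to the methods, while the sample sheet of the study adds CX3CR1, so the gate is uncertain, and the 3′ end of each transcript was counted. With 1 group there was no treatment to compare, and the questions were how far the replicates agree and how the complement genes differ between cell states of the same mice.

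Complement is a cascade of plasma and tissue proteins that tags particles for removal. The recognition molecule C1q is built from the products of C1qa, C1qb and C1qc, which assemble into heterotrimeric stalks with globular heads, and it starts the classical pathway, in which C4 and then C3 are cleaved. Cleavage fragments of C3 and C5 act on the receptors encoded by C3ar1 and C5ar1, and properdin stabilises the C3 convertase of the alternative pathway. Microglia are a main source of C1q in the brain and carry both fragment receptors.

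After removal of cells with fewer than 400 genes or more than 10% mitochondrial UMIs, 13002 of 13138 barcodes remained, with 2576 to 3692 cells and 5841671 to 11267195 UMIs per library and a median of 1905 to 2936 UMIs per cell. Of the cell-type marker lists, microglia had the highest sum: its 10 markers reached 44110 to 45269 CPM (the UMIs of a gene scaled to a common library total). The 7 monocyte markers summed to 11.7 to 56.0 CPM, and all 6 neutrophil markers were at 0 in every library. Lists of cells outside the sort were not all absent. B cell markers summed to 349 to 378 CPM, oligodendrocyte markers to 50.3 to 59.4 CPM and endothelial markers to 21.4 to 28.6 CPM. T and NK cell, astrocyte and neuron markers were lower than these in every library. The source of these UMIs was not tested. Between 6 and 21 barcodes were shared by any pair of libraries. Replicate 4 stood apart in the 25-gene list of ex vivo activated microglia (exAM), at 4638 CPM against 2751 to 2909 CPM in the others. The study records that the sorter clogged at its last mouse, its sample 4, which was sorted a second time. It reports more time at room temperature for that sample, and cells enriched for the exAM list almost only there. The labels number their libraries differently. The part of that event in the values of replicate 4 was not tested.

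The 3 C1q genes lie next to each other on the minus strand of chromosome 4 (GRCm38, GENCODE annotation): C1qb (ENSMUSG00000036905) at 136880129 to 136886187, C1qc (ENSMUSG00000036896) at 136889804 to 136893065 and C1qa (ENSMUSG00000036887) at 136895917 to 136898803, separated by 3616 and 2851 bases. C3ar1 (ENSMUSG00000040552) lies on chromosome 6 at 122847138 to 122856161, and C5ar1 (ENSMUSG00000049130) on chromosome 7 at 16246743 to 16259540. C4b (ENSMUSG00000073418; chromosome 17, 34728380 to 34743882), C3 (ENSMUSG00000024164; chromosome 17, 57203970 to 57228136) and Cfp (ENSMUSG00000001128; chromosome X, 20925454 to 20931555) complete the set, all on the minus strand. C4b is nearly identical in sequence to C4a, which was not analysed here, so its counts are uncertain.

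The stretches of 250 bases before the RefSeq transcription start are shown for C1qb and C1qc, neighbouring genes whose levels moved together in several cell states, and for C3ar1, which moved in the opposite direction to C1qa (RefSeq, GRCm38.p6, minus strand, 5′ to 3′, at chr4:136886201-136886450, chr4:136892915-136893164 and chr6:122856158-122856407). Of the 8 genes, 6 had an entry in the promoter table, and C1qa and C4b are named only. Capitals mark matches on either strand to 4 motifs.
C1qb: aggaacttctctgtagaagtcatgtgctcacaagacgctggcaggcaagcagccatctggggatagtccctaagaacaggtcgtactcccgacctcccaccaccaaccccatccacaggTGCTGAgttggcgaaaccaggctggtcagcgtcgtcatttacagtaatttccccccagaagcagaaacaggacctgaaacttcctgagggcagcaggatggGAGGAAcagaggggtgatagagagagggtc
C1qc: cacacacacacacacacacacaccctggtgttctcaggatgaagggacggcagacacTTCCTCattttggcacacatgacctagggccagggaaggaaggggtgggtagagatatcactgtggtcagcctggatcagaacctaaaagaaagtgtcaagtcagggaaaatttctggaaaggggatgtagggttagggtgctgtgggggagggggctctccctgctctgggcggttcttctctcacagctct
C3ar1: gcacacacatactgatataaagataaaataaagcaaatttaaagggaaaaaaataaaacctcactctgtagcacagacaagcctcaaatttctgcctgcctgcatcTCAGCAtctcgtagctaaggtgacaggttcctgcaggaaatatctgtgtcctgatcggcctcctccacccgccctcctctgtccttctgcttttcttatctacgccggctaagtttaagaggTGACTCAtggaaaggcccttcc

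The motifs searched were GAGGAA, a core of the kind bound by the myeloid factor PU.1, TGCTGA, of the kind bound by Maf factors, TGANTCA of AP-1, and TTGCNNAA of C/EBP factors. They do not share letters where they are marked here. GAGGAA stood 30 to 25 bases before the start of C1qb and, on the other strand, 193 to 188 bases before that of C1qc, and 23.3% of the 32851 promoters in the table hold it in the same 250 bases. TGCTGA stood 131 to 126 bases before the start of C1qb and, on the other strand, 144 to 139 bases before that of C3ar1 (16.1% of promoters). TGANTCA was found 22 to 16 bases before the start of C3ar1 (6.75% of promoters). TTGCNNAA, which 9.56% of promoters hold, was in none of the 3 stretches. In the other 3 promoters C5ar1 held TGCTGA, C3 held TGCTGA and TTGCNNAA, and Cfp held none of the 4. These are matches of letters, not sites shown to be bound.

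The recognition chains were among the most abundant transcripts of these cells. For C1qa, replicates 1 to 4 gave 12389, 11930, 11269 and 11616 CPM, a mean of 11801 ± 476 (SD, n = 4). C1qb reached 11164, 11428, 10145 and 10325 CPM (10766 ± 626), and C1qc 9959, 10243, 9835 and 9606 CPM (9911 ± 266). By mean CPM they ranked 5, 7 and 8 of all genes. Replicates 1 and 2 had the higher levels of C1qb and C1qc and replicates 3 and 4 the lower ones, but the ranges were narrow, and the summed C1q level was 32477 ± 1253 CPM. CPM values here are UMIs of the 3′ end and are not divided by transcript length.

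C1q was detected in nearly every cell, whereas the 2 fragment receptors were moderate in level. C3ar1, the receptor for C3a, stood at 245, 258, 249 and 254 CPM (251 ± 5.48, n = 4), and C5ar1, the receptor for C5a, at 237, 261, 226 and 241 CPM (241 ± 14.5). Replicate 2 was highest for both, and the replicates otherwise lay close together. C3ar1 was above C5ar1 in 3 of 4 libraries, by 0.06 ± 0.06 (SD) on the log2 scale (exact permutation test over sign changes, two-sided p = 0.25), where the smallest p that 4 libraries allow is 0.125. C5ar2, the second C5a receptor, was lower, at 48.5 to 79.4 CPM, and C5ar1 exceeded it by 1.93 ± 0.41 (log2, higher in 4 of 4 libraries, exact permutation p = 0.125).

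The share of cells with a receptor UMI depended on depth. Before thinning, 36.7%, 50.3%, 40.5% and 46.7% of cells in replicates 1 to 4 had a C3ar1 UMI, in the order of their median depth. With every cell thinned at random to 1000 UMIs (12737 cells) the shares were 22.7%, 22.4%, 21.5% and 22.0%. For C5ar1 the shares were 33.6%, 47.9%, 34.2% and 43.7% before thinning and 20.1%, 21.2%, 19.0% and 20.4% after it. Thus at equal depth the libraries were close together for both receptors. All 3 C1q chains were detected in 99.6% to 99.8% of the thinned cells.

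The remaining 3 members were nearly absent from these cells. C3, the central component, had 1, 3, 7 and 9 UMIs in replicates 1 to 4. Cfp had 9, 12, 6 and 34 UMIs, which is 1.28, 1.07, 1.03 and 3.78 CPM, and C4b 12, 29, 0 and 32. Replicate 4 had the most UMIs of all 3 genes, and C4b at 0 in replicate 3 allows up to 0.514 CPM (3 UMIs of that library, an allowance for counting error only, as are the other counting intervals). Few cells carried these UMIs: 16 cells for C3, 47 for Cfp and 52 for C4b.

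**Figure D1:**
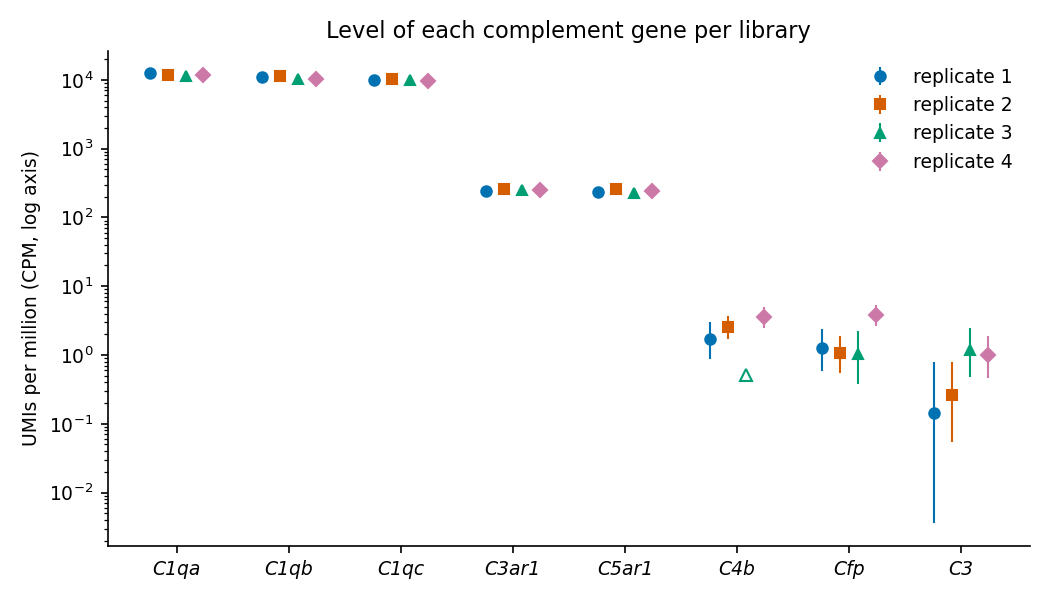
Level of the 8 complement genes in each of the 4 libraries, in CPM on a log axis, with 1 point per library, exact 95% Poisson intervals as bars and an open triangle at the floor for C4b in replicate 3, which had 0 UMIs. The C1q chains lie between 9606 and 12389 CPM, C3ar1 and C5ar1 between 226 and 261 CPM, and C3, Cfp and C4b at 3.78 CPM or below.

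Whether the replicates lay together was judged by the range test of Dixon (two-sided, 95%), which asks whether the highest or lowest of 4 values stands apart from the other three. Of the 5 members at a mean of 10 CPM or more, 0 had a library apart, against 4.62% of the 7656 genes tested. Without the filter on level, Cfp was the 1 member of 8 with a library apart (replicate 4 high), against 13.2% of the genes with a UMI. The counts therefore do not set the complement genes off from other genes in this respect.

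The 3 chains were present in a near-constant ratio. C1qa made up 37.0%, 35.5%, 36.1% and 36.8% of the C1q UMIs (36.3% ± 0.684), C1qb 33.3%, 34.0%, 32.5% and 32.7% (33.1% ± 0.686) and C1qc 29.7%, 30.5%, 31.5% and 30.4% (30.5% ± 0.721). No library stood apart in any of these shares. On the log2 scale C1qa exceeded C1qb by 0.13 ± 0.05 and C1qb exceeded C1qc by 0.12 ± 0.06, each in 4 of 4 libraries (exact permutation p = 0.125, the smallest that 4 libraries allow, and 0.156 adjusted over the 5 differences of levels computed). As C1q UMIs were not divided by transcript length, this order is of UMIs captured, not of molecules per cell.

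**Figure D2:**
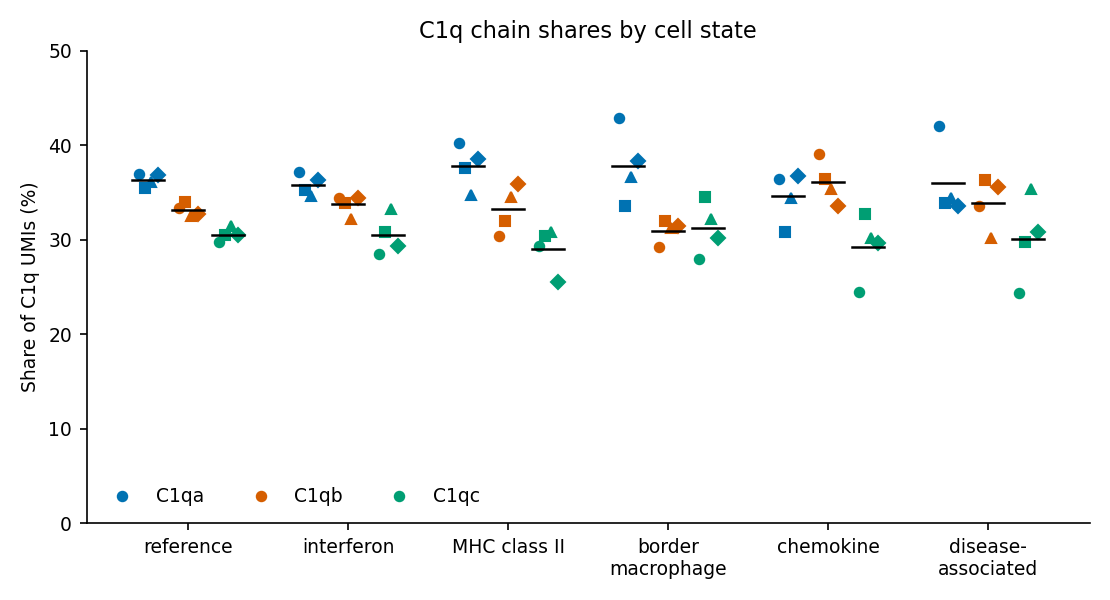
Share of C1q UMIs from C1qa, C1qb and C1qc in reference cells and each list state, in percent, with 1 point per library (circle, square, triangle and diamond for replicates 1 to 4) and a line at the mean. In reference cells the shares lie near 36.3%, 33.1% and 30.5%, and the states with few cells scatter more widely.

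Within single cells the ratio varied more than counting error alone would give, by a modest amount in every library. In the cells of no state list (the reference cells, defined below) with at least 20 C1q UMIs, the chi-square per degree of freedom around each library's own share was 1.22 to 1.31 for C1qa, 1.21 to 1.30 for C1qb and 1.13 to 1.19 for C1qc, where 1 would be counting error alone. The share differed slightly with depth, in the same direction in all libraries. In the 25% of reference cells with the most UMIs the C1qb share was 33.7% on average, against 32.0% in the 25% with the fewest, a difference of 1.75 ± 0.424 percentage points (SD, 4 of 4 libraries, exact permutation p = 0.125). C1qa differed by -1.34 ± 0.528 points between the same cells (lower in 4 of 4 libraries, exact permutation p = 0.125).

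The amount of C1q per cell formed 1 broad peak with a thin low tail. Thinned to 1000 UMIs, the median cell held 33, 33, 31 and 31 C1q UMIs in replicates 1 to 4, the 10th percentile was 22 to 24 and the 90th was 41 to 44. The variance was 1.87 to 2.07 times the mean among reference cells and 1.94 to 2.15 times among all cells. Only 51 of 12737 cells held 10 or fewer C1q UMIs (19, 10, 10 and 12 in replicates 1 to 4), a limit chosen after these values were seen.

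These C1q-low cells carried the markers of other myeloid cells. Summed over the 51 cells, the microglial markers were at 6241 CPM against 45075 CPM in the other cells, the monocyte markers at 4237 against 13.4 CPM and the MHC class II genes at 33030 against 390 CPM. Of the 20 UMIs of C3, 14 came from these cells, as did 21 of the 61 UMIs of Cfp and 0 of the 73 UMIs of C4b. The cells held 176081 UMIs in all, too few to tell the 0 for C4b from its 2.23 CPM in the other cells. C3ar1 was at 153 against 253 CPM and C5ar1 at 119 against 244 CPM. Of the 51 cells, 29 were in at least 1 of the state lists defined below. The MHC class II list held 19 of them, the disease-associated list 10 and the interferon list 8, some in more than 1 list. As the cells were chosen for their C1q, these values are a description and were not tested.

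Monocyte markers, which the choice of the members did not use, marked the same end of the range. The 31 cells with 2 or more UMIs of the 7 monocyte genes, among them Ly6c2 and Ccr2, held a median of 3 C1q UMIs per 1000, against 32 in the other 12706 cells. By library the medians were 3, 9.5, 2 and 8, and 21 of the 31 cells (8 of 9, 2 of 4, 3 of 3 and 8 of 15) held 10 or fewer C1q UMIs. Of these 31 cells, 30 had at least 1 C1q UMI, so that detection of C1q alone did not separate them from microglia. C3 had 12 UMIs there (113 CPM) and Cfp 13 (122 CPM), against 0.244 and 1.46 CPM in the other cells. C4b had 0 UMIs, but 106630 UMIs in all are too few to tell this from the 2.22 CPM of the other cells. The C3 UMIs were 1, 0, 3 and 8 in replicates 1 to 4, and without replicate 4 its level was 85.8 CPM. The Cfp UMIs were 7, 0, 0 and 6 in replicates 1 to 4, and without replicate 1 its level was 73.0 CPM. Doublets were not called here, and their part in these values was not tested.

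**Figure D3:**
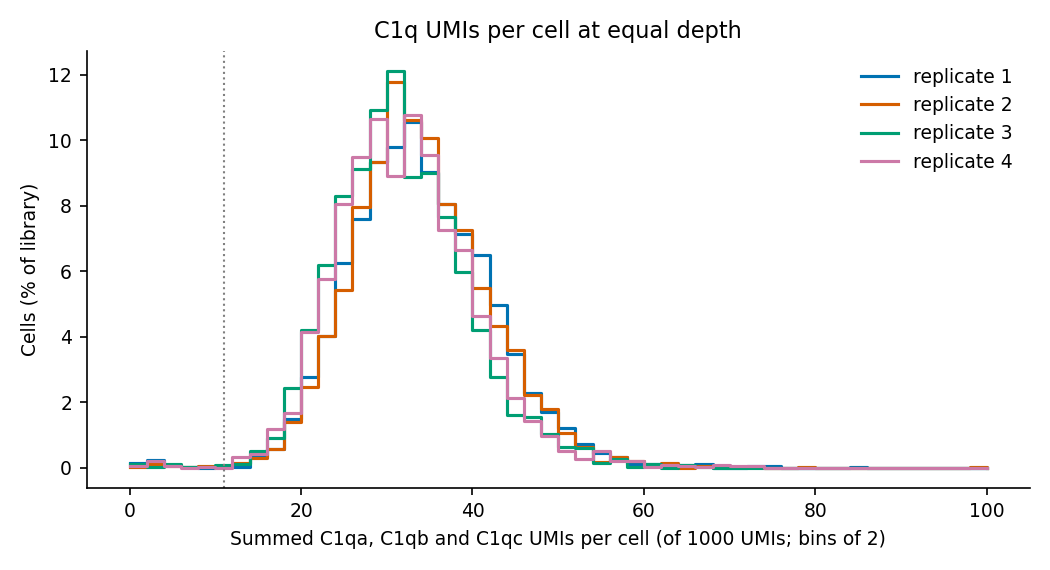
Distribution of C1q UMIs per cell after thinning to 1000 UMIs, as the percent of cells in each bin of 2 UMIs for the 4 libraries, with a dotted line above 10 UMIs. The medians lie at 31 to 33 UMIs, and 51 cells in all hold 10 or fewer.

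Across reference cells of 1 library, the chains rose and fell together to a modest degree, and the receptors did not follow them. The Pearson correlation of log2 UMI counts after thinning was 0.21 ± 0.04 for C1qa with C1qb, 0.19 ± 0.05 for C1qa with C1qc and 0.20 ± 0.04 for C1qb with C1qc (mean ± SD of 4 libraries, 2448 to 3625 cells each). The cells of a library share its preparation, and thinning makes all transcripts compete for the same 1000 UMIs. Only 29 of the 51 C1q-low cells were in a state list, so the rest stayed among the reference cells. The reference also held 10 cells with 2 or more monocyte UMIs, 4 of them in replicate 1. The part of such cells in these correlations was not tested. C1q chains and receptors had mean correlations between -0.01 and 0.01, and C3ar1 with C5ar1 had 0.03 ± 0.01. Correlations this weak in sparse counts are not read further.

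Outside the family, the genes most like the summed C1q level included the protease inhibitor Cst3 (mean r 0.31), the lysosomal proteases Ctss (0.20) and Ctsd (0.18), and the membrane protein gene Itm2b (0.18). The median over the 7651 genes compared was -0.01 and the 99th percentile 0.03. These 4 are abundant transcripts, from 7037 CPM for Itm2b to 59706 CPM for Cst3. For C3ar1 the most alike were Cd63, Ctsz, Cd83, Trmt13 and Mfsd11, at only 0.03 to 0.04, against a 99th percentile of 0.02.

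Cell states were taken by gene lists that hold none of the 8 members: a cell of 1000 thinned UMIs with 3 or more UMIs of a list entered that state, and the 12498 cells of no list were the reference. The states held 102 cells by interferon-responsive genes, 83 by MHC class II genes, 32 by markers of border macrophages, 29 by the chemokines Ccl3 and Ccl4, and 26 by genes known from disease-associated microglia. All counts of a state were summed per library, which gave 3 to 40 cells in a sum, and 10 cells were in both the MHC class II and the border macrophage lists. The sums were compared with the reference of the same libraries by edgeR's quasi-likelihood test with Benjamini-Hochberg adjustment over all genes. The filter on low counts left 5 members, C3, Cfp and C4b being too sparse.

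In MHC class II list cells all 3 C1q chains fell. Their summed level was 19063, 26369, 16386 and 20228 CPM in replicates 1 to 4, against 33574, 33664, 31381 and 31774 CPM in the reference cells. Every library was lower in the listed cells. Of the 83 listed cells, 19 were among the C1q-low cells with 10 or fewer C1q UMIs, and their part in the fall was not tested. The log2 changes were -0.65 ± 0.22 (SE) for C1qa, -0.70 ± 0.22 for C1qb and -0.78 ± 0.22 for C1qc, with edgeR adjusted p of 0.0448, 0.0213 and 0.0064. Thus 3 of the 5 members fell, in a comparison where 4.16% of 9538 genes did and where the median over all genes was -0.35.

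The receptors did not pass the test in these cells: C3ar1 differed by 0.19 ± 0.23 and C5ar1 by -0.22 ± 0.25 (edgeR adjusted p = 0.744 and 0.705). Other markers moved with the fall in C1q. Microglial markers summed to 15175 to 27638 CPM, against 44309 to 45989 CPM in the reference, and monocyte markers to 407 to 2538 CPM, against 8.95 to 22.4 CPM. Pooled over libraries, border macrophage markers were at 981 CPM against 15.7 and dendritic markers at 299 CPM against 1.90, and 14 of the 83 cells had 2 or more monocyte UMIs. Without those 14 cells C1qb and C1qc were still called (-0.63 and -0.70) and C1qa was not (-0.57). Without replicate 1, and likewise without replicate 3, no C1q chain was called.

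The steepest fall in C1q was in the cells taken by the disease-associated list, whose leading genes include Lpl, Cst7 and Lgals3. The summed level was 12832, 18182, 13659 and 20439 CPM, below the reference of the same library each time. Of the 26 listed cells, 10 were among the C1q-low cells with 10 or fewer C1q UMIs, and their part in the fall was not tested. C1qa fell by 1.55 ± 0.34 on the log2 scale and C1qc by 1.56 ± 0.34 (edgeR adjusted p = 0.000348 and 0.000305), and C1qb fell by nearly as much (adjusted p = 0.000666). The median over all genes tested was -0.69, and 2.87% of genes fell. C3ar1 and C5ar1 differed by 0.09 ± 0.37 and -0.39 ± 0.40 (adjusted p = 0.942 and 0.63).

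The 26 cells carried monocyte markers in 3 of 4 libraries, so the list name is not used as a cell type. Their monocyte markers summed to 6621, 39.8, 3333 and 4821 CPM in replicates 1 to 4, and 6 cells had 2 or more monocyte UMIs. Replicate 2 was near the reference in those markers, and its C1q level was 18182 CPM against 33664. Without the 6 cells all 3 chains were still called (-1.36, -1.32 and -1.39), while without replicate 1 or without replicate 3 none was. With scaling to library totals the falls were 1.03, 0.97 and 1.03. On simulated counts the fit for these cells called more unchanged genes than its threshold allows, so the adjusted p values here are likely too small.

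In the interferon, border macrophage and chemokine list cells 0 members were called by edgeR, against 2.81%, 1.31% and 0.483% of genes. The unadjusted edgeR p was below 0.05 for 1055, 1034 and 927 of the genes tested. DESeq2 also called 0 members. Summed C1q was 32898, 32635, 26769 and 26367 CPM in interferon list cells, lower than the reference in each library but overlapping it. Monocyte markers in those cells were at 1075, 227, 2546 and 2775 CPM, and 10 of the 102 cells had 2 or more monocyte UMIs. MHC class II genes there were at 260, 5247, 12302 and 11425 CPM. The part of either in the C1q level of the interferon list cells was not tested. In border macrophage list cells summed C1q was 19583, 33904, 29163 and 26286 CPM, of which the first 2 values rest on 3 cells each. Microglial markers in the border macrophage list cells were at 9791, 34810, 32541 and 19218 CPM, in the same order of libraries as C1q. The median depth was 1873, 10951, 5349 and 2761 UMIs per cell, against 1916 to 2940 in the reference. The part of doublets and of free RNA in the C1q of these cells was not tested.

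Chemokine list cells had higher values of both receptors than the reference in every library, without passing the test. C3ar1 was at 446, 765, 721 and 488 CPM, against 244 to 257 CPM in the reference, and C5ar1 at 557, 328, 885 and 334 CPM, against 222 to 260 CPM. The differences were 0.70 ± 0.35 and 0.60 ± 0.36 on the log2 scale (edgeR adjusted p = 0.49 and 0.565). They rest on 52 and 48 UMIs from 29 cells. Monocyte, dendritic and border macrophage markers were all at 0 UMIs in these cells.

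The result for these cells depended on the scaling. Scaling to library totals in place of TMM factors moved the median of all genes by 0.51, and by 0.46 and 0.26 in the disease-associated and border macrophage list cells. Under totals C3ar1 and C5ar1 were called higher, at 1.27 and 1.19, against 0.472% of genes called higher. C1qa and C1qc were at -0.80 and -0.79 under TMM (edgeR adjusted p = 0.1 and 0.115) and at -0.14 each under totals, and C1qb turned from -0.61 to 0.05, so no direction is given for C1q. Relative to the median of all genes, -0.64, the chains lay near it and the receptors above it under either scaling.

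**Figure D4:**
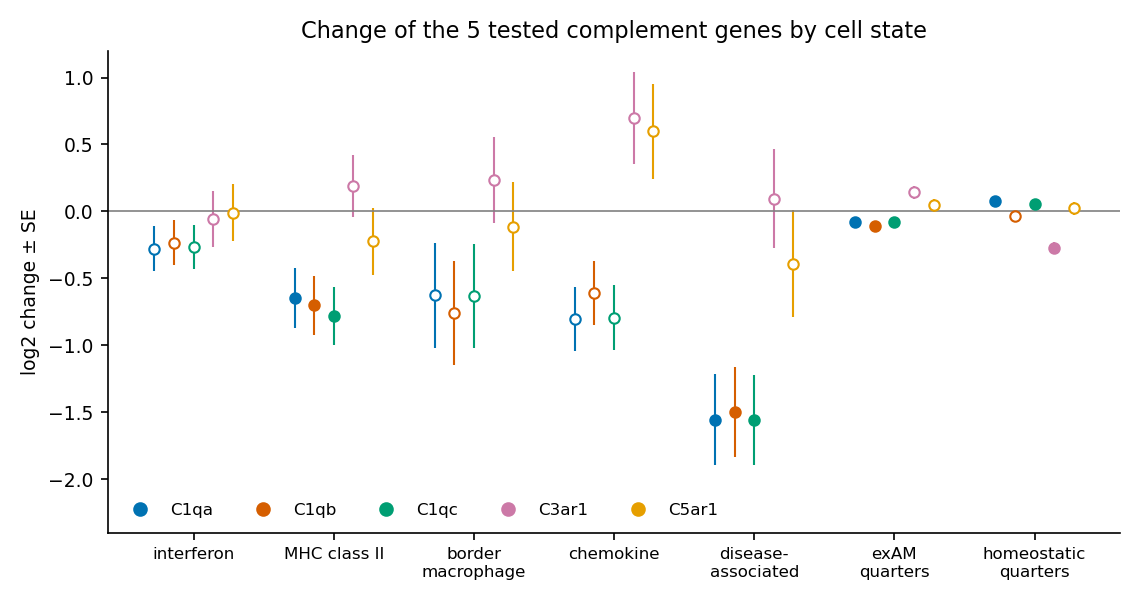
Log2 change of the 5 tested members in each comparison, with its standard error, filled where the adjusted p passed 0.05 and open where it did not; the first 5 groups set list cells against reference cells and the last 2 set the upper against the lower 25% of reference cells. The C1q chains lie at -0.65 to -0.78 in MHC class II list cells and down to -1.56 in disease-associated list cells, and C3ar1 lies at -0.27 in the homeostatic comparison.

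Among reference cells, 25% with the most and 25% with the fewest UMIs of 11 homeostatic genes, such as P2ry12 and Tmem119, were compared within each library. C3ar1 was at 267, 275, 280 and 275 CPM in the low cells and at 222, 232, 217 and 243 CPM in the high cells. The high cells had less in 4 of 4 libraries. The fall was 0.27 ± 0.05 on the log2 scale (edgeR adjusted p = 1.64e-05), in a comparison where 3.89% of 9086 genes fell. The call held in 13 of 13 alternatives. Monocyte markers were at 28.1 CPM in the low and 8.71 CPM in the high cells, and without the cells of 2 or more monocyte UMIs the fall was 0.28. The low cells had a median of 2519 UMIs and the high cells 2362.5. C3ar1 also varied with depth itself, from 289 ± 21.4 CPM in the 25% of reference cells with the fewest UMIs to 214 to 239 CPM in the 25% with the most, and the part of depth in the result was not tested.

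In the same comparison C1qa rose by 0.08 ± 0.02 and C1qc by 0.05 ± 0.02 (edgeR adjusted p = 0.00175 and 0.0479), where 2.74% of genes rose. Their standard errors were smaller than that of the less abundant C3ar1 (0.05), so this share is not a like-for-like measure. C1qb differed by -0.03 ± 0.02 (adjusted p = 0.351) and C5ar1 by 0.02 ± 0.05. The shares of the chains had the same direction in all libraries. The C1qa share was higher in the high cells by 1.06 ± 0.258 percentage points and the C1qc share by 0.466 ± 0.215, and the C1qb share was lower by 1.53 ± 0.270 (SD; the sign was the same in 4 of 4 libraries, exact permutation p = 0.125 each). The deeper cells of a library had the higher C1qb share, as given above.

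The upper 25% of reference cells by exAM UMIs had slightly less C1q than the lower 25%. The study derived this list from other mice of its own. Summed C1q was 32671, 33054, 30628 and 30853 CPM in the upper and 34460, 34111, 32060 and 32720 CPM in the lower cells. The drop was seen within every library, whereas the ranges of the groups overlapped. C1qa fell by 0.08 ± 0.02, C1qb by 0.11 ± 0.02 and C1qc by 0.08 ± 0.02 (edgeR adjusted p = 0.0206, 0.000321 and 0.0441), in a comparison where 0.144% of 9025 genes fell. These abundant genes had smaller standard errors than the less abundant C3ar1 (0.05), so the share over all genes is not a like-for-like measure.

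These falls were small and depended on the fit. Without replicate 1 or without replicate 2 only C1qb was called, without replicate 3 and in a fit without the library block no member was. C3ar1 was at 224, 249, 259 and 235 CPM in the lower and 275, 264, 276 and 268 CPM in the upper cells. It was higher in 4 of 4 libraries, but at 0.14 ± 0.05 it did not pass the test (edgeR adjusted p = 0.377). C5ar1 differed by 0.04 ± 0.05.

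The ratio of the chains also varied between the states, with few cells behind each value. The C1qb share was above that of the reference in chemokine list cells by 2.98 ± 2.04 percentage points (4 of 4 libraries) and differed by -2.16 ± 1.34 in border macrophage list cells (lower in 4 of 4). The C1qc share was lower in MHC class II list cells in 4 of 4 libraries, with a mean difference of -1.51 ± 2.31. Each has an exact permutation p of 0.125, the smallest possible here. Over the 24 differences of shares computed, the Benjamini-Hochberg value was 0.3 for all 10 with that p, those of depth and of the homeostatic genes included.

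The sparse members had higher pooled levels in several list states than in the reference cells. Over the 12498 reference cells, C3 had 7 UMIs (0.218 CPM), Cfp 29 (0.903 CPM) and C4b 42 (1.31 CPM). In interferon list cells C3 had 10 UMIs (35.4 CPM), of which 7 were in replicate 4, and in MHC class II list cells Cfp had 14 (48.2 CPM), of which 10 were in replicate 4. In border macrophage list cells C4b had 24 UMIs (139 CPM), of which 23 were in replicate 4, and C3 had 0. Replicate 4 thus held most of each of these counts, and without it the levels were 16.3 CPM for C3, 27.0 CPM for Cfp and 10.2 CPM for C4b.

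Run without the filter on low counts, edgeR called C3, Cfp and C4b higher in interferon list cells, C3 and Cfp in the MHC class II and disease-associated list cells, and Cfp and C4b in border macrophage list cells, against 1.59%, 3.36%, 1.14% and 1.03% of genes called higher. These calls rest on few UMIs, such as 10, 10 and 7 of C3, Cfp and C4b in interferon list cells. The lists also share cells, so the calls are not separate observations. The calls of these sparse genes are therefore no result. C3 had 20 UMIs in all, 7 of them in reference cells. The interferon, MHC class II and disease-associated list cells held 10, 7 and 3, some of them counted in more than 1 list. In chemokine list cells all 3 genes were at 0 UMIs, which allows up to 34.3 CPM. Monocyte markers were at 0 there as well, whereas in interferon list cells they were at 1700 CPM pooled against 14.1 CPM in the reference, and border macrophage markers at 626 against 15.7 CPM. Replicate 4 held 19 of the 32 border macrophage list cells, and the part of that library in their C4b level was not tested.

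**Figure D5:**
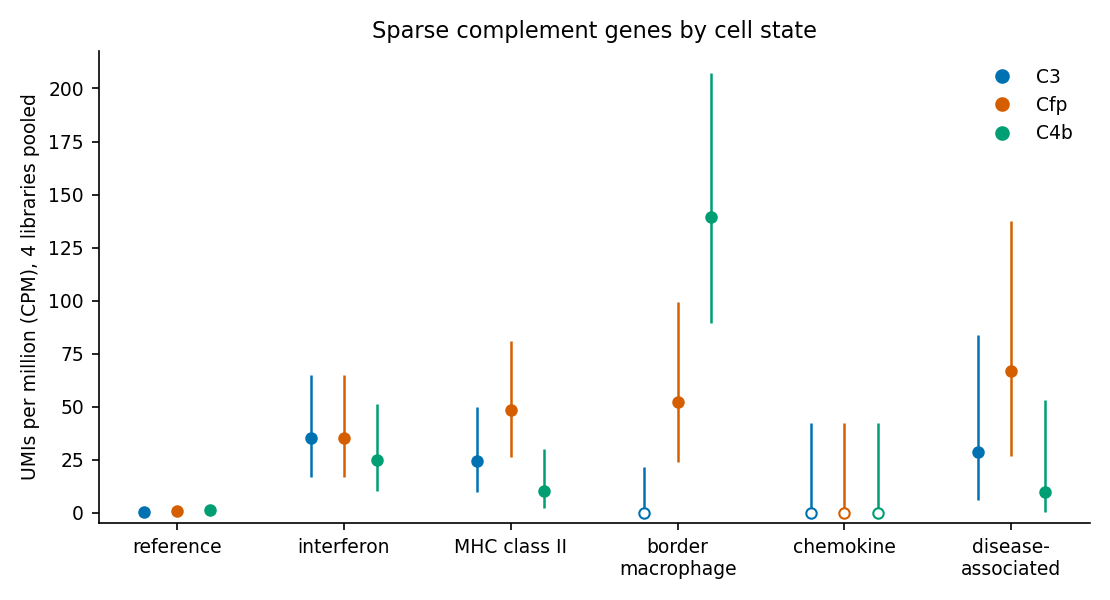
Pooled level of C3, Cfp and C4b in reference cells and in each cell state (open points mark 0 UMIs), in CPM, with exact 95% Poisson intervals that cover counting error only. C4b is highest in border macrophage list cells, at 139 CPM, and all 3 genes are at 0 UMIs in chemokine list cells.

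Of the wider complement system, 51 genes were found in the table, 20 of them at 0 in all libraries, and 8 reached a mean of 10 CPM. Among genes of classical and lectin initiation the highest was the protease gene C1ra, at 1.15 to 2.57 CPM, and C1s1, C1s2, Mbl1 and Mbl2 were at 0. The alternative pathway genes Cfb and Cfd had 1 and 0 UMIs. Of the 7 terminal genes, C8g had 25 UMIs and the other 6, among them Hc, which encodes C5, were at 0. Thus the transcripts of C1q were present without most of the proteases and later components of the cascade, at this depth and in these sorted cells.

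Regulators and receptors were better represented. The membrane regulator Cr1l was at 137, 147, 158 and 149 CPM in replicates 1 to 4. The integrin chains of complement receptor CR3, Itgam and Itgb2, were at 245 to 296 and 280 to 299 CPM, and Calr, which encodes the chaperone calreticulin, known also as a partner of C1q, at 835 to 961 CPM. Of the 8 wider genes tested in every comparison, Calr and Itgam each rose by 0.15 in the cells high in homeostatic genes (edgeR adjusted p = 0.00033 and 0.0337), and 0 were called in the other 6 comparisons. Itgam has more than 1 row in the gene table, and its level sums them. The value given is of the row with the smaller standard error, and the other row differed by 0.32 ± 0.30 (edgeR adjusted p = 0.691). Itgax, a chain of CR4 at 2.04 to 3.42 CPM, passed the filter on low counts only through the MHC class II list cells, so its test is not given.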

How the data were processed

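Single-cell RNA-seq values of 4 libraries were analysed. The deposited values were UMI counts per gene and cell, which the authors made with Cell Ranger 2.2.0 from 10x Genomics 3′ libraries, aligned to mm10 (GRCm38), with no normalisation. The gene table lists 28692 genes, and 0 value columns were left unused. Per the labels each library is 1 mouse, so p-values measure the spread between these 4 mice. The 8 members and all gene lists were chosen with earlier results of these data known. All 8 members are named in each comparison. Co-varying genes are the 5 with the highest mean correlation, and wider complement genes are the 3 highest per list or those at 0, and some results under this rule are not reported here.

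A cell was kept if it had 400 genes or more and mitochondrial UMIs of 10% or less, and no doublet caller was run. Cell states were set on counts thinned to 1000 UMIs per cell, so only 12737 of the 13002 cells, those deep enough, entered there, and their full counts were summed per library and state. The filter kept 9025 to 9538 genes. Sums were tested with edgeR 4.0.16 (TMM, quasi-likelihood, library as a block since both sums come from the same mouse) and Benjamini-Hochberg adjustment at 0.05. The fit was also run on counts simulated with the same fixed dispersion for every gene, which need not be that of the data. False calls there made up more than 0.05 of the calls in every comparison but border macrophage and exAM. Their share was highest in disease-associated list cells. Every comparison but exAM and homeostatic missed most of the smaller changes. DESeq2 1.42.0 was an alternative. Intervals are exact (95%), and a count of 0 was given a floor of 3 UMIs. In Dixon's test log2(CPM + 1) was used for the levels of single genes in all cells. Summed levels and levels within states were tested in CPM, chain shares in percent and correlations as they are. At 5841671 to 11267195 UMIs per library this floor was 0.266 to 0.514 CPM.

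Alternatives were library totals, no filter on low counts, no block, other limits for state cells, thinning to 2000 UMIs, leaving out list genes, the 1% of deepest cells or each replicate, and, added after seeing the data, leaving out cells with 2 or more monocyte marker UMIs. The methods name removal of doublets by markers.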

Additional observations from a re-analysis of the deposited data

Results flagged for a closer look

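The values below have 1 library far from the other 3 by Dixon's test, whose ratio divides the gap by the range. It was also run on many other gene levels, chain shares, levels within states and correlations, which were not marked and are not listed. At this limit chance alone is expected to mark about 5% of groups of 4, and 4.62% of the 7656 genes at 10 CPM or more were marked.

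Cfp was high in replicate 4, at 2.26 against 1.02 to 1.19 on the log2(CPM + 1) scale (ratio 0.865). It rests on 34 UMIs there and 6 to 12 in the others. Itgax was high in replicate 3, at 3.42 CPM against 2.04 to 2.13 CPM (ratio 0.927), and replicate 1 had the lowest C1qbp, 86.5 CPM, with 93.8 to 94.2 CPM elsewhere (ratio 0.952).

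The C1qa share of C1q UMIs in disease-associated list cells was 42.0% in replicate 1 against 33.6% to 34.4% in the others (ratio 0.897), from 250 C1q UMIs in 7 cells. The correlation of C1qa with C1qc across reference cells was 0.26 in replicate 1 against 0.16 to 0.17 (ratio 0.964). The summed exAM list was high in replicate 4, at 4638 CPM against 2751 to 2909 CPM (ratio 0.916), while no C1q chain and neither fragment receptor was apart in that library.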

How the results depend on the processing

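The C1q level, the 3 chain shares and C3ar1 in the homeostatic comparison kept their direction and side of the threshold under every alternative run. Over all called members, 116 of 162 alternatives kept the call, 46 lost it and 0 reversed; the cause of each loss was not tested. The border macrophage comparison without the 1% of deepest cells gave no value, as it left a replicate with no cell.

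Without the filter on level, 1 member had a library apart. Without the low-count filter the members called were 3 for interferon, 5 for MHC class II, 2 for border macrophage, 2 for chemokine and 5 for disease-associated list cells. The added members were the sparse ones, whose calls are no result, except in chemokine list cells, where they were C1qa and C1qc. Library totals called 2 for chemokine and 1 for exAM. Without the 1% of deepest cells the count was 1 for MHC class II and 2 for chemokine. State limits of 5 or more UMIs called 1 for interferon and 3 for chemokine, and 2 or more called 0 for MHC class II. Thinning to 2000 UMIs called 1 for MHC class II, and leaving out the list genes called 1 for exAM. Leaving out each replicate gave 0 to 1 for interferon, 0 to 3 for MHC class II, 0 to 2 for chemokine, 0 to 3 for disease-associated and 0 to 2 for exAM. The single member for interferon was C3 or C4b, which passed the filter on low counts only through the list cells, as did Cfp for MHC class II without replicate 3, so these calls are no result. The mean C1q correlation of 0.199 became 0.293 with thinning to 2000 UMIs and 0.246 over all cells of 1000 UMIs or more.

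Both sums of a library come from 1 mouse, so the main fit has the library as a block. With no replicate block, members called became 2 for chemokine, 0 for exAM and 1 for homeostatic, with no other count moving by over 1.5 times. All genes called then were 180 against 45, 8 against 44 and 145 against 602, and 312 against 123 for border macrophage and 701 against 357 for disease-associated. Over all alternatives, left-out replicates and DESeq2 included, the genes called ranged from 172 to 368 for interferon (268 in the reported fit), 434 to 986 for MHC class II (790), 51 to 312 for border macrophage, 10 to 180 for chemokine, 143 to 701 for disease-associated, 8 to 62 for exAM and 145 to 641 for homeostatic. Genes higher and lower were, under TMM and library totals, 176 and 92 against 220 and 63 for interferon, 81 and 42 against 125 and 34 for border macrophage, 18 and 27 against 44 and 4 for chemokine, 88 and 269 against 194 and 87 for disease-associated, and 31 and 13 against 35 and 8 for exAM. Depth limits C3, Cfp and C4b to 20, 61 and 73 UMIs in all, and the states to 26 to 102 cells.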
